A study of Mus musculus with 8 samples.

Results

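The genes that encode collagens, laminins and integrins were examined in mouse primary hepatocytes cultured on a soft or a stiff hydrogel, with and without Yap and Taz. They were chosen by name alone from the protein-coding genes of the deposited table. Their symbols match a fixed pattern for collagen, laminin, integrin α and integrin β chains. The pattern gave 79 of 56748 genes, with 44 collagen, 11 laminin, 16 integrin α and 8 integrin β genes. It leaves out Itga2b, another integrin α chain, which is counted below among the leukocyte and platelet markers. Hepatocytes came from C57BL/6J mice with floxed Yap and floxed Taz alleles that were 7 to 8 weeks old when they were injected intravenously with AAV8-TBG-Cre or with AAV8-TBG-Null. The first virus gives the hepatocyte-specific knockout (Yap/Taz HepKO). The second gives the control (wild type), which carries the same floxed alleles but receives no Cre. TBG is a promoter used to drive expression in hepatocytes, so other liver cells are not its target. The labels give the sex of the mice as female in one place and as male in another. Cells were isolated 10 days after the virus and cultured for 24 h on polyacrylamide hydrogel of 1 kPa (soft) or 20 kPa (stiff). Every gel was coated with collagen, so cells of all 4 groups were on a collagen surface. Each group had 2 RNA sequencing libraries, and no source used here says whether they came from separate mice.

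Collagens are triple-helical proteins of the extracellular matrix. Type I and type III collagens form fibrils, type IV collagen forms the network of basement membranes, and laminins are trimers of an α, a β and a γ chain that assemble beside it. Integrins are receptors made of an α and a β chain that bind these proteins outside the cell and couple to actin inside it through talin, kindlin and integrin-linked kinase. In the liver, hepatocytes lie along a space that lacks a continuous basement membrane, and stellate cells and fibroblasts are known as the main producers of fibrillar collagen. YAP and TAZ are transcriptional co-activators that bind TEAD factors and respond to the stiffness of the surface under a cell.

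Library totals ranged from 18324083 to 26442310 counts, and a count of 0 allowed a level of up to 0.113 to 0.164 CPM (counts scaled to the library total), for counting error only. Levels between genes are compared here in FPKM, that is scaled CPM per kilobase of the gene length in the table. Yap1 was at 10.3 to 10.8 FPKM in wild-type soft, 14.6 to 15.2 FPKM in wild-type stiff and 3.07 to 3.44 FPKM in the 4 Yap/Taz HepKO libraries. Wwtr1, which encodes TAZ, was at 8.69 to 8.89, 13.4 to 13.7 and 2.86 to 3.47 FPKM in the same order. Every knockout library was below every wild-type library for both, and none was at 0. Albumin (Alb), the defining product of hepatocytes, was at 54500 to 87400 CPM in every library. Each comparison was tested with edgeR on all genes, and a gene was called when its Benjamini-Hochberg adjusted p was under 0.05 and its absolute log2 fold change was over 0.5.

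At the level of a hepatocyte culture, 19 of the 79 genes had a mean of at least 1 FPKM over the 8 libraries. They held 97.5% to 98% of the summed FPKM of the 79 genes in each library. Another 54 genes were present at trace level, below 1 FPKM with at least 1 count, and 6 genes (Col9a1, Col19a1, Col28a1, Col6a4, Col6a5 and Itgb8) had no count in any library. Itgb6, at a mean of 1.05 FPKM, lay just above this limit, and Col12a1, at 0.954 FPKM, just below it. Itgb6 and Lamb3 reached 1 FPKM only through wild-type stiff, where their means were 3.48 and 3.08 FPKM. In the other groups their means were 0.125 to 0.439 and 0.413 to 0.809 FPKM. The highest mean was that of Itgb1, the common β1 partner of many α chains, at 127 FPKM, followed by Col18a1, the precursor of endostatin, at 63.4 FPKM and Itgb5, a partner of the αv chain, at 54.4 FPKM. Lamc1, the γ1 chain of most laminins, averaged 24.3 FPKM and Itga3, a laminin-binding α chain, 22 FPKM. Col4a2 (16.9 FPKM), Col4a1 (16.6 FPKM), Itga6 (14.4 FPKM), Itgav (13.5 FPKM) and Itga5 (10.9 FPKM) came next. Of the fibrillar collagens, Col27a1 averaged 1.58 FPKM, Col3a1 1.24 FPKM, Col1a1 0.726 FPKM and Col1a2 0.205 FPKM. The highest of the collagen-binding α chains, Itga1, averaged 0.422 FPKM.

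**Figure D1:**
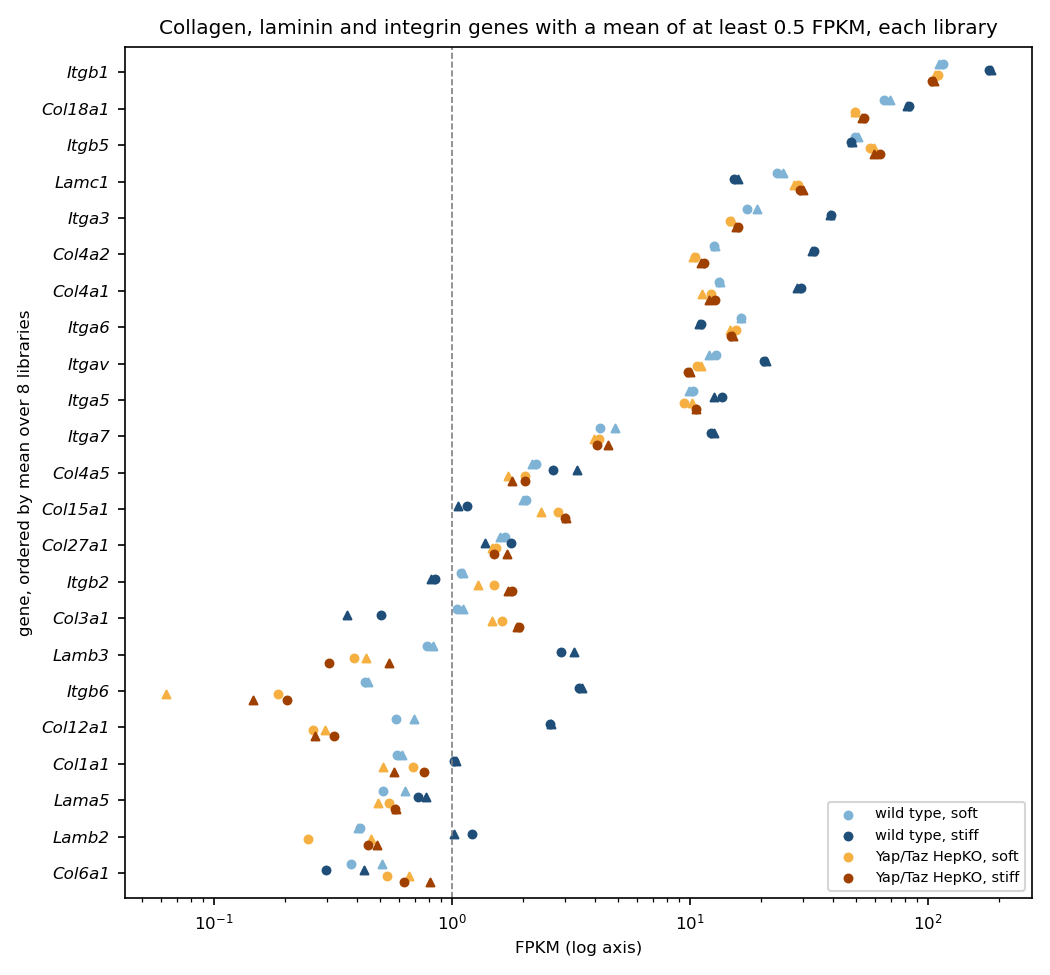
The x axis is FPKM on a log axis and the y axis lists collagen, laminin and integrin genes with a mean of at least 0.5 FPKM, with a circle for the first and a triangle for the second library of each group. The dashed line marks 1 FPKM. For Itgb1, Itga3, Col4a1 and Col4a2 the wild-type stiff libraries lie to the right of the other 6.

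Enough counts for a test were present for 48 of the 79 genes, namely all 19 at 1 FPKM or more and 29 of the trace genes. The other 25 trace genes had between 1 and 39 counts in all 8 libraries together and at most 13 in any library, among them the chains Lama1, Lama2, Lama3, Lamc3, Col4a3, Col4a4, Col2a1 and Itga11. A trace gene that was tested may have passed the filter through its highest group, so counts over trace genes are given as descriptions. Itgb6 and Lamb3 are among the 19 through their highest group, so counts over the 19 are descriptions too. Col3a1 and Itgb2, also among the 19, had means of 0.434 and 0.834 FPKM in wild-type stiff. In the knockout their means were higher, at 1.55 and 1.9 FPKM for Col3a1 and 1.4 and 1.76 FPKM for Itgb2.

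The first comparison asked how these genes differed between stiff and soft hydrogel in wild-type hepatocytes. Type IV collagen, the laminin-binding integrins Itga3 and Itga7, Itgb1, Itgav, Itgb6 and Lamb3 rose on the stiff gel, while Lamc1, Itga6, Col15a1 and Col3a1 fell. Of the 48 genes tested, 22 (45.8%) were called in edgeR, against 19.3% of all 14279 genes. There were 14 higher, against 10% of all genes, and 8 lower, against 9.26%. Among the 19 genes at 1 FPKM or more, 9 rose and 4 fell, with a median log2 fold change of 0.44. The 9 include Itgb6 and Lamb3. Among the 29 tested trace genes 5 rose and 4 fell, with a median of -0.23. The median over all genes was -0.009.

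**Figure D2:**
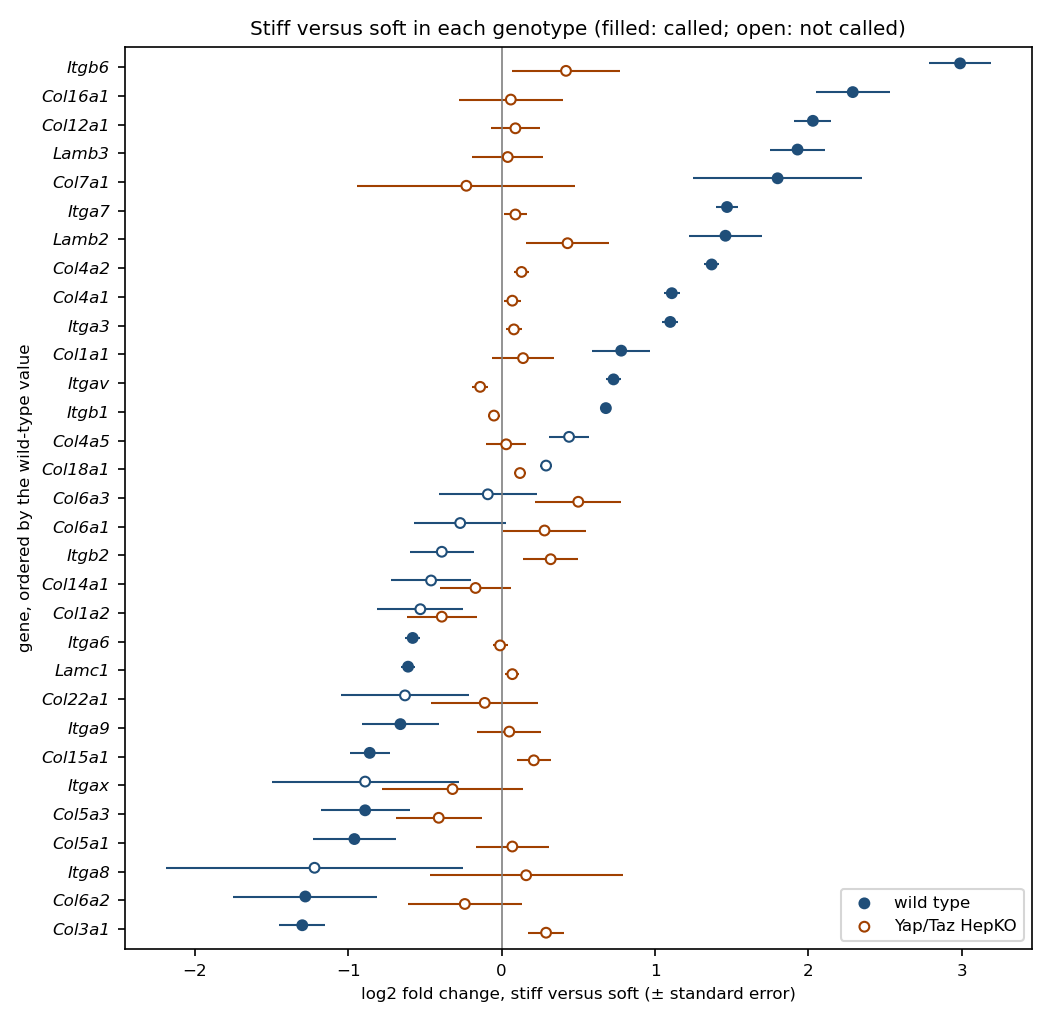
The x axis is the log2 fold change of stiff versus soft with its standard error, and the y axis lists genes called in any comparison. Blue points are wild type and brown points Yap/Taz HepKO, and filled points are called. The wild-type values run from -1.3 (Col3a1) to 2.99 (Itgb6), and no Yap/Taz HepKO point is filled.

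Type IV collagen rose on the stiff gel in wild type. Col4a1 and Col4a2 encode the chains that join in the common type IV collagen molecule. Col4a1 was at 13.3 and 13.4 FPKM in wild-type soft, 29.3 and 28.3 in wild-type stiff, 12.3 and 11.3 in Yap/Taz HepKO soft and 12.8 and 12.1 in Yap/Taz HepKO stiff. Col4a2 was at 12.6 and 12.8, 33.3 and 32.6, 10.5 and 10.3, and 11.5 and 11.1 FPKM in the same order. Both wild-type stiff libraries were above the other 6 for both genes. In wild type, stiff over soft was 2.16-fold for Col4a1 (log2 fold change 1.11 ± 0.053 SE, edgeR adjusted p = 8.72e-12) and 2.59-fold for Col4a2 (log2 1.37 ± 0.049 SE, edgeR adjusted p = 1.41e-13). The FPKM ratio of Col4a2 to Col4a1 was 0.951 and 0.961 in wild-type soft, 1.14 and 1.15 in wild-type stiff and 0.849 to 0.92 in the knockout libraries. Col4a5, the X-linked chain of another type IV molecule, was at 2.26 and 2.18 FPKM in wild-type soft and 2.67 and 3.37 in wild-type stiff and was not called there (log2 0.44 ± 0.13 SE, edgeR adjusted p = 0.00884), while Col4a3, Col4a4 and Col4a6 were too low to test. Summed over the 6 type IV genes, the level was 28.2 and 28.4 FPKM in wild-type soft, 65.3 and 64.3 in wild-type stiff and 23.4 to 26.4 in the knockout, which was 26.7% to 27.6%, 41.2% and 28.1% to 29.4% of the FPKM of all collagens.

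Col4a1 and Col4a2 lie head to head. Their promoters are shown because both genes rose and the windows share bases. Each window runs from 250 bases before to 50 after the RefSeq transcript start (build GRCm38.p6), for Col4a1 at chr8:11312777-11313076 on the minus strand and for Col4a2 at chr8:11312555-11312854 on the plus strand. The 2 windows share 78 bases, in capitals, and the 2 transcripts overlap by 22 bases, as they also do in the positions of the deposited table.
Col4a1: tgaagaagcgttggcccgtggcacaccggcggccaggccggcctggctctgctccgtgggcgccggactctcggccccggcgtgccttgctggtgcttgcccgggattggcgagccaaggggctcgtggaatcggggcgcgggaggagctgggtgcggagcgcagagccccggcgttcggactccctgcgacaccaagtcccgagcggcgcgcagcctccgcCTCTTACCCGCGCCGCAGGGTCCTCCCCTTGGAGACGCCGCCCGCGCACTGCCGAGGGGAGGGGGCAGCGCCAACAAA
Col4a2: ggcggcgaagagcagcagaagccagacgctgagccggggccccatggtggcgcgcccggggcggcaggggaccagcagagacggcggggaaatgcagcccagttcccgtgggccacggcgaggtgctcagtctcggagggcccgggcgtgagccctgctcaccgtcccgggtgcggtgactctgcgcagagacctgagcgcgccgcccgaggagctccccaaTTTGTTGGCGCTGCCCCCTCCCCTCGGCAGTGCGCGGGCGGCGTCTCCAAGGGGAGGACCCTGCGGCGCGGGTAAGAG
Neither window held CATTCC, the core of the TEAD motif, or TGANTCA, the AP-1 motif, on either strand.

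Col18a1 and Col15a1, the pair of multiplexin collagens of basement membrane zones, went different ways. Col18a1 was at 65.5 and 69.5 FPKM in wild-type soft and 83.4 and 82.2 in wild-type stiff, a 1.23-fold difference below the fold limit for a call (log2 0.29 ± 0.039 SE, edgeR adjusted p = 6.89e-06). Col18a1 held 64% and 65.2% of the collagen FPKM in wild-type soft and 52.5% and 52.6% in wild-type stiff. Col18a1 (mean of 9475 counts) overlaps Slc19a1 of the opposite strand (mean of 416 counts), and edgeR called Slc19a1 in none of the 5 comparisons. Col15a1 was at 2.05 and 1.99 FPKM in wild-type soft and 1.16 and 1.06 in wild-type stiff and fell by 0.86 on the log2 scale (SE 0.13, edgeR adjusted p = 2.14e-05).

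The laminin chains also split. Lamc1 was at 23.3 and 24.6 FPKM in wild-type soft, 15.4 and 16 in wild-type stiff, 28.6 and 27.5 in Yap/Taz HepKO soft and 29.2 and 29.8 in Yap/Taz HepKO stiff. Both wild-type stiff libraries were below the other 6, and the gene fell by 0.61 on the log2 scale in wild type (SE 0.047, edgeR adjusted p = 6.05e-09). Lamb3, the β chain of laminin-332, was at 0.786 and 0.832, 2.89 and 3.27, 0.39 and 0.436, and 0.305 and 0.546 FPKM in the same order. It rose 3.82-fold in wild type (log2 1.93 ± 0.18 SE, edgeR adjusted p = 6.73e-08). Lama3 was too low to test. Lamb2, a trace gene for the β2 chain, rose 2.75-fold, from 0.412 and 0.402 FPKM to 1.22 and 1.02 FPKM (edgeR adjusted p = 7.54e-05). Lama5, the α chain with the highest level (0.606 FPKM), was at 0.514 and 0.634 FPKM in wild-type soft and 0.724 and 0.781 in wild-type stiff and was not called (log2 0.40 ± 0.16 SE). Lamc1 made up 85.1% and 85.8% of the laminin FPKM in wild-type soft, 65.7% and 66.3% in wild-type stiff and 87% to 89% in the knockout.

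Reads of Lamb3 and Lamc1 could be mixed with those of other genes. In the table Lamb3 spans Hsd11b1 on the other strand, an abundant hepatocyte gene with a mean of 7440 counts against 162 for Lamb3, and how strand entered the counting is not given in the sources used here. Hsd11b1 differed by log2 0.02 between wild-type stiff and soft and was called in none of the 5 comparisons. Gm8818, a pseudogene within Lamc1 on the other strand, had a mean of 117 counts against 4338 for Lamc1 and differed by log2 -1.06 between wild-type stiff and soft.

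Among the receptors, the laminin-binding α chains moved in opposite directions. Itga3 was at 17.4 and 19.1 FPKM in wild-type soft, 39.2 and 38.8 in wild-type stiff, 14.8 and 15.1 in Yap/Taz HepKO soft and 15.9 and 15.7 in Yap/Taz HepKO stiff. Itga7 was at 4.2 and 4.85, 12.3 and 12.6, 4.14 and 3.96, and 4.09 and 4.52 FPKM. Itga6 was at 16.4 and 16.5, 11.2 and 10.9, 15.6 and 14.7, and 14.9 and 15.2 FPKM. The wild-type stiff libraries were above all others for Itga3 and Itga7 and below all others for Itga6. In wild type Itga3 rose 2.14-fold (log2 1.10 ± 0.052 SE, edgeR adjusted p = 6.74e-12) and Itga7 rose 2.77-fold (log2 1.47 ± 0.071 SE, edgeR adjusted p = 9.43e-12). Itga6 fell by 0.58 on the log2 scale (SE 0.049, edgeR adjusted p = 2.69e-08). On the FPKM scale the ratio of Itga3 to Itga6 was 1.06 and 1.15 in wild-type soft, 3.5 and 3.56 in wild-type stiff and 0.944 to 1.07 in the knockout. The ratio of Itga7 to Itga6 was 0.255 and 0.293, 1.1 and 1.16, and 0.265 to 0.296. In Itga6, 6.19% of the 64-base windows of the longest transcript occur in a transcript of another gene, so part of its counts is uncertain. Itga7 overlaps Mettl7b by 13 bases, and Mettl7b differed in the other direction (log2 -1.07).

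The α chains that bind the RGD motif of fibronectin and vitronectin were Itgav and Itga5 at 1 FPKM or more. Itgav was at 12.9 and 12.1 FPKM in wild-type soft, 20.5 and 21 in wild-type stiff, 10.7 and 11.2 in Yap/Taz HepKO soft and 9.85 and 9.99 in Yap/Taz HepKO stiff, and it rose 1.66-fold in wild type (log2 0.73 ± 0.049 SE, edgeR adjusted p = 8.9e-10). Itga5, the α chain of the classical fibronectin receptor, was at 10.3 and 9.94 FPKM in wild-type soft and 13.6 and 12.6 in wild-type stiff, which was not a call (log2 0.37 ± 0.062 SE, edgeR adjusted p = 0.000121). None of the 3 tested collagen-binding α chains (Itga1, Itga2 and Itga10) was called in any comparison, and Itga11 was too low to test. At an unadjusted p under 0.05 in edgeR their count was also 0. In Itga10, 31.3% of the windows are shared with another gene, and Itga1 overlaps Pelo.

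The β chains differed in level by a wide margin. Itgb1, the partner of Itga3, Itga5, Itga6, Itga7 and Itgav, was at 116 and 112 FPKM in wild-type soft, 181 and 184 in wild-type stiff, 110 and 107 in Yap/Taz HepKO soft and 104 and 106 in Yap/Taz HepKO stiff. It rose 1.6-fold in wild type (log2 0.68 ± 0.036 SE, edgeR adjusted p = 4.13e-11). Itgb6, a partner of αv in the activation of latent TGF-β, was at 0.433 and 0.445, 3.42 and 3.54, 0.187 and 0.0629, and 0.204 and 0.146 FPKM. Its rise in wild type was 7.92-fold (log2 2.99 ± 0.20 SE, edgeR adjusted p = 1.16e-09), and the wild-type stiff libraries held 505 and 495 of its counts against 9 to 80 in the other 6. Itgb5 was at 49.3 and 50.7 FPKM in wild-type soft and 47.8 and 48.2 in wild-type stiff, with no call (log2 -0.06 ± 0.047 SE, edgeR adjusted p = 0.356). In Itgb5, 7.77% of the windows are shared with another gene. Summed over the genes of each kind, α chains were at 63.2 and 64.4 FPKM in wild-type soft, 98.2 and 97.2 in wild-type stiff and 57 to 57.9 in the knockout, and β chains at 167 and 165, 233 and 237, and 167 to 169.

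**Figure D3:**
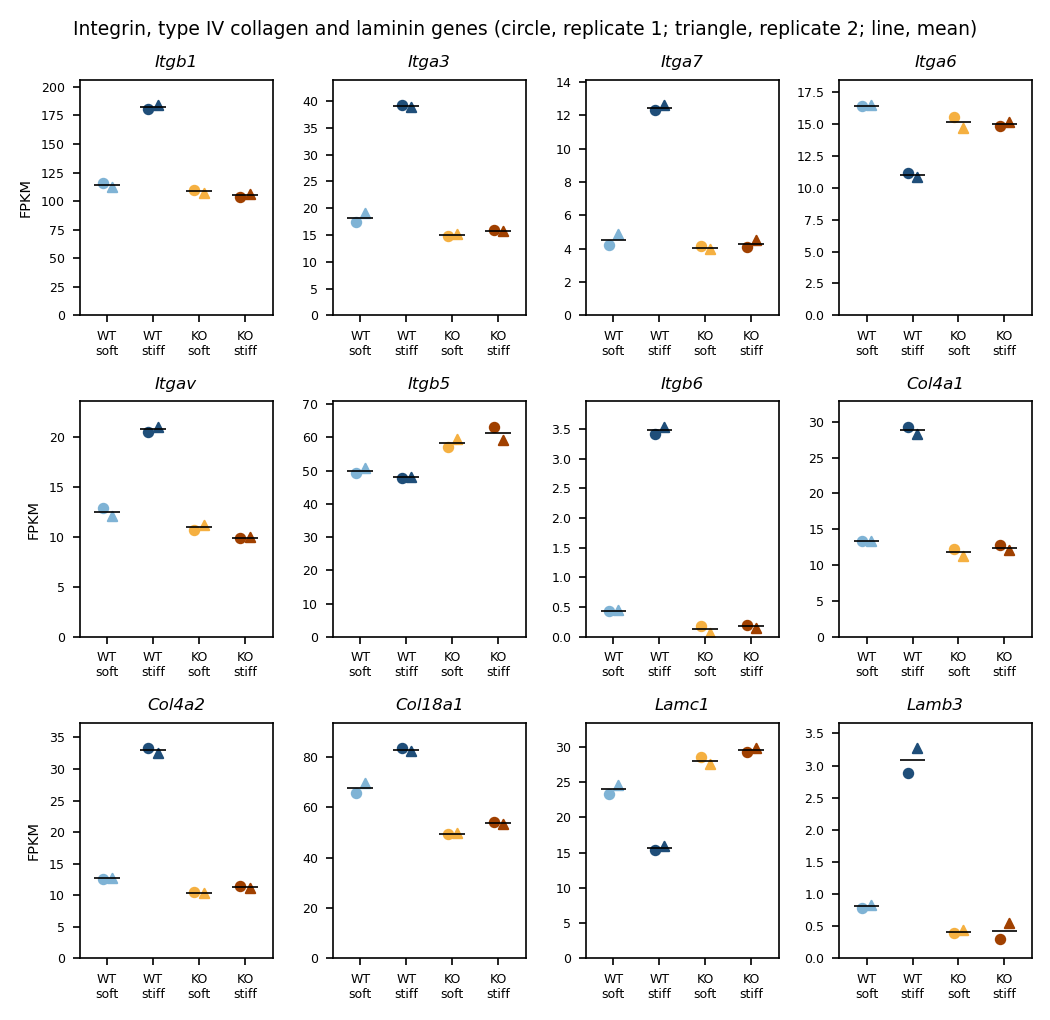
The y axes are FPKM from 0, with a circle and a triangle for the libraries of each group and a line at their mean. The wild-type stiff libraries stand above the rest for Itgb1, Itga3, Itga7, Itgav, Itgb6, Col4a1, Col4a2, Col18a1 and Lamb3 and below the rest for Itga6, Itgb5 and Lamc1.

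In Yap/Taz HepKO hepatocytes none of the 48 genes was called between stiff and soft in edgeR, against 0.021% of all genes (3 genes, with 0.014% higher and 0.007% lower). At an unadjusted p under 0.05, 4 of the 48 passed in edgeR, against 1077 of 14279 genes, and DESeq2 also called 0. The smallest edgeR adjusted p among the 19 genes at 1 FPKM or more was 0.597, and the log2 fold changes ran from -0.14 (Itgav) to 0.42 (Itgb6). Standard errors had a median of 0.063 on the log2 scale for these genes, close to the 0.062 of the wild-type comparison. The log2 values were -0.05 for Itgb1 (SE 0.037), 0.08 for Itga3 (SE 0.053), 0.07 for Col4a1 (SE 0.055), 0.13 for Col4a2 (SE 0.051) and 0.07 for Lamc1 (SE 0.045). Trace genes had wider errors, with a median SE of 0.34, and ran from -1.26 (Itga4) to 0.50 (Col6a3).

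The difference between the genotypes in the stiff response was tested as an interaction. It was called for 17 of the 48 genes in edgeR, against 16.8% of all genes, with 12 lower in the knockout than in wild type (8.21% of all genes) and 5 higher (8.64%). Of the 19 genes at 1 FPKM or more, 13 were called, Itgb6 and Lamb3 among them. The log2 interaction was -1.01 for Itga3 (SE 0.074, edgeR adjusted p = 7.3e-09), -1.38 for Itga7 (SE 0.10, edgeR adjusted p = 1.03e-08) and 0.56 for Itga6 (SE 0.069, edgeR adjusted p = 5.44e-06). It was -1.04 for Col4a1 and -1.25 for Col4a2 (edgeR adjusted p = 7.8e-09 and 2.21e-10). For the laminin chains it was 0.68 for Lamc1 (edgeR adjusted p = 2.36e-07) and -1.89 for Lamb3 (edgeR adjusted p = 8.01e-05). Itgb6 had the lowest value, -2.56 (SE 0.42, edgeR adjusted p = 0.000141), but its knockout soft libraries had 34 and 9 counts, and without the library of 34 counts the value was -1.52 with an edgeR adjusted p of 0.0527.

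On the soft gel, 6 of 48 genes (12.5%) were called between Yap/Taz HepKO and wild type in edgeR, against 6.67% of all genes. Of the 6, 4 were lower (4.65% of all genes) and 2 higher (2.02%). At an unadjusted p under 0.05 in edgeR, 19 of the 48 passed, against 4233 of 14279 genes. Itgb6 was 3.33-fold lower (log2 -1.74 ± 0.30 SE, edgeR adjusted p = 0.00032), with a log2 value of -2.79 without the first knockout soft library. Lamb3 was 1.96-fold lower (log2 -0.97 ± 0.21 SE, edgeR adjusted p = 0.00303). Col12a1, a collagen that binds to fibrils, was 2.3-fold lower, at 0.584 and 0.697 FPKM in wild type and 0.261 and 0.294 in the knockout (edgeR adjusted p = 5.07e-06). Col16a1, a related fibril-associated collagen, was 1.93-fold lower (edgeR adjusted p = 0.0375), a call that was lost when any of 5 single libraries was left out (edgeR adjusted p from 0.0614 to 0.182 in those fits). Col3a1 and Col1a2 were higher by log2 0.53 and 0.94 (edgeR adjusted p = 0.007 and 0.00885). Without the first knockout soft library both calls were lost (edgeR adjusted p = 0.101 and 0.0607), and the number of calls was then 3. Without the first wild-type soft library both were lost as well, at log2 0.49 for Col3a1 and an edgeR adjusted p of 0.0553 for Col1a2. Of the main chains, Itgb1 (log2 -0.08), Itga6 (log2 -0.12) and Itga7 (log2 -0.15) had no adjusted p under 0.05 in edgeR. Col18a1 (log2 -0.45 ± 0.039 SE) and Itga3 (log2 -0.29 ± 0.053 SE) had edgeR adjusted p = 1.15e-07 and 0.000576 but lay under the fold limit. Also under it were Col4a2 (log2 -0.29), Lamc1 (0.23), Itgb5 (0.22), Itgav (-0.2), Col4a1 (-0.17) and Col15a1 (0.36). Their edgeR adjusted p ran from 0.000315 to 0.0373.

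On the stiff gel, 29 of 48 genes were called between the genotypes in edgeR, against 28.7% of all genes, with 15 lower in Yap/Taz HepKO (15% of all genes) and 14 higher (13.7%). This comparison shares the wild-type stiff libraries with the wild-type comparison above, so the values are given beside it and not as separate evidence. Of the 19 genes at 1 FPKM or more, 10 were lower and 4 higher, and their median log2 value was -0.62. The 10 include Itgb6 and Lamb3. Of the 29 tested trace genes, 5 were lower and 10 higher, and their median was 0.38, where the median over all genes was 0.011. Itgb6 was 19.7-fold lower (log2 -4.30 ± 0.24 SE, edgeR adjusted p = 2.7e-11) and Lamb3 7.28-fold lower (log2 -2.86 ± 0.19 SE, edgeR adjusted p = 5.8e-10). Col4a2 was 2.91-fold, Itga7 2.89-fold, Itga3 2.47-fold, Col4a1 2.31-fold, Itgav 2.09-fold and Itgb1 1.74-fold lower, with edgeR adjusted p between 1.18e-14 and 2.58e-12. Col18a1 was 1.54-fold lower (edgeR adjusted p = 1.87e-10), at 83.4 and 82.2 FPKM in wild type and 54.2 and 53.2 in the knockout. Col4a5 was 1.57-fold lower (edgeR adjusted p = 0.000316), although without the second wild-type stiff library its log2 value was -0.49. Lamc1 was 1.88-fold higher (edgeR adjusted p = 1.02e-11), while Itga6 (log2 0.45 ± 0.050 SE) and Itgb5 (log2 0.35 ± 0.047 SE) were not called. Of the trace genes, Col16a1 was 9.04-fold, Col12a1 8.87-fold, Col7a1 4.66-fold, Lamb2 2.4-fold and Col1a1 1.54-fold lower (edgeR adjusted p = 9.07e-09, 3.95e-13, 0.00387, 0.000202 and 0.0121). The Col1a1 call was lost without the second wild-type stiff library (edgeR adjusted p = 0.0527) and without the second knockout stiff library (edgeR adjusted p = 0.122).

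Some collagens at or near trace level rose on the stiff gel in wild type. Col12a1 was at 0.584 and 0.697 FPKM in wild-type soft, 2.59 and 2.62 in wild-type stiff and 0.261 to 0.32 in the 4 knockout libraries, a 4.1-fold rise in wild type (log2 2.03 ± 0.12 SE, edgeR adjusted p = 9.51e-11). Col16a1 was at 0.211 and 0.272, 1.17 and 1.16, and 0.11 to 0.146 FPKM, and rose 4.88-fold (log2 2.29 ± 0.24 SE, edgeR adjusted p = 3.34e-07). Col1a1, the α1 chain of type I collagen, was at 0.587 and 0.618 FPKM in wild-type soft, 1.02 and 1.04 in wild-type stiff, 0.69 and 0.515 in Yap/Taz HepKO soft and 0.764 and 0.572 in Yap/Taz HepKO stiff, a 1.71-fold rise in wild type (edgeR adjusted p = 0.00368). Its partner chain Col1a2 had no such rise, at 0.158 and 0.165 FPKM in wild-type soft and 0.12 and 0.102 in wild-type stiff (log2 -0.53 ± 0.28 SE, edgeR adjusted p = 0.137). The FPKM ratio of Col1a1 to Col1a2 was 3.71 and 3.74 in wild-type soft, 8.49 and 10.1 in wild-type stiff and 1.69 to 3.62 in the knockout. Col7a1, the anchoring fibril collagen, had 4 to 26 counts per library and a 3.48-fold rise (edgeR adjusted p = 0.0138) that was lost without the first wild-type soft library (edgeR adjusted p = 0.163) or without the second wild-type stiff library (edgeR adjusted p = 0.13).

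Other collagens were lowest in wild-type stiff. Col3a1, the type III collagen chain, was at 1.05 and 1.11 FPKM in wild-type soft, 0.506 and 0.362 in wild-type stiff, 1.63 and 1.47 in Yap/Taz HepKO soft and 1.91 and 1.88 in Yap/Taz HepKO stiff. It fell by 1.30 on the log2 scale in wild type (SE 0.15, edgeR adjusted p = 1.52e-06), was 4.35-fold higher in the knockout on the stiff gel (edgeR adjusted p = 6.68e-10) and had a log2 interaction of 1.59 (edgeR adjusted p = 5.46e-06). Col15a1 was 2.69-fold higher in the knockout on the stiff gel (edgeR adjusted p = 1.47e-08), with 1.16 and 1.06 FPKM in wild type against 2.98 and 3.02. Col5a1 and Col5a3, chains of the type V collagen that joins fibrils, fell by 0.96 and 0.89 on the log2 scale in wild type (edgeR adjusted p = 0.00786 and 0.0218), and Col6a2, a chain of the beaded type VI collagen, fell by 1.28 (edgeR adjusted p = 0.0362). Itga9 fell by 0.66 (edgeR adjusted p = 0.0403). The Col5a1 fall was lost without the first wild-type soft library (edgeR adjusted p = 0.119). The calls of Col5a3 and Col6a2 were each lost when any of 3 wild-type libraries was left out, and that of Itga9 when any of the 4 was (edgeR adjusted p from 0.0632 to 0.25). On the stiff gel Col1a2 was 2.12-fold higher in the knockout (edgeR adjusted p = 0.00221), Itgb2, the leukocyte β2 chain, 2.1-fold higher (edgeR adjusted p = 0.000185), Itga9 2.31-fold higher (edgeR adjusted p = 0.000337) and Col5a1 2.25-fold higher (edgeR adjusted p = 0.00118). Col6a1, Col6a2, Col6a3, Col14a1, Col22a1, Itgax and Itga8 were higher there by log2 0.82 to 2.38, and each of these 7 calls was lost in edgeR without at least 1 of the libraries. At its mean of 0.0577 FPKM Itga8 had 0 and 5 counts in the wild-type stiff libraries, and its log2 value of 2.38 was 1.37 without the first of them and 1.62 without the first knockout stiff library. Without the second wild-type stiff library that group is at 0 counts, so no fold is given.

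The summed markers of 3 other kinds of liver cell moved with these genes. Over all genes, 9.26% fell in wild type on the stiff gel and 13.7% were higher in the knockout there. Of the stellate cell and fibroblast markers, 3 of 6 tested (10 listed) fell in wild type on the stiff gel and 5 were higher in the knockout there, and their summed level was 20.8 to 21.8 CPM in wild-type soft, 14 to 14.1 in wild-type stiff and 29.1 to 32.9 in the knockout. Of the 8 endothelial markers 5 fell and 7 were higher, at 61.5 to 66.2, 42.2 to 42.3 and 80.4 to 84.8 CPM. Kupffer cell and macrophage markers, with 7 of 8 tested, had 4 falls and 6 higher in the knockout, at 62.1 to 63.8, 43.1 to 48.5 and 86.5 to 87.4 CPM. Cd68 alone was 46 and 46.4, 33.6 and 36.9, and 56 to 61.3 CPM of that sum. It was not called in wild type (log2 -0.39 ± 0.069 SE). The wild-type and knockout ranges did not overlap in any of these sums. Lrat, which defines quiescent stellate cells, was at 0 to 0.199 CPM, and Hand2 and Ngfr, further stellate markers, were at 0 in at least 1 wild-type library. Dcn, the largest part of the stellate and fibroblast sum, was at 11.2 and 10.5 CPM in wild-type soft, 6.36 and 5.28 in wild-type stiff and 15.1 to 17.5 in the knockout. Acta2 of the same list went the other way in wild type, from 2.08 and 2.17 CPM to 2.7 and 3.05 CPM. It was not called there (log2 0.44 ± 0.23 SE). Reln and Des were not called there either (log2 -0.22 and -0.32). The part of these cells in the levels of Col3a1, Col15a1, Col1a2, Col5a1, Col6a1, Col6a2, Itgb2 and Itgax was not tested, and in these bulk libraries fewer cells of a type and less RNA per cell cannot be told apart. Col1a1, Col4a1, Col4a2, Itga3, Itga7 and Itgb1 were highest in wild-type stiff, where the 3 sums were lowest. Of the leukocyte and platelet list 2 of 8 genes were tested, none was called in wild type, and the sum was 4.62 to 7.45 CPM, with Cd3e at 0 in every library.

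Markers of bile duct cells (cholangiocytes) and mesothelial cells, the other epithelia of the liver, were also measured. Those of bile duct cells did not move as a group, and only 1 of 4 mesothelial markers was tested. Of 8 cholangiocyte markers 6 were tested, 1 rose and 1 fell in wild type on the stiff gel, beside 10% and 9.26% of all genes. The sum was 572 to 627 CPM in wild type and 342 to 369 CPM in the knockout, but Spp1 alone was 507 to 543 and 280 to 310 CPM of it and was lower in the knockout on both gels (log2 -0.77 on soft and -0.90 on stiff). Krt19 rose, from 1.81 and 2.44 CPM to 21 and 20.1 CPM, and was at 0.429 to 0.845 CPM in the knockout. Tspan8 fell (log2 -1.26), Sox9 (34.8 to 42.1 CPM) was not called, Krt7 was at 0 to 0.148 CPM, and Cftr was at 0 in every library. Mesothelial Krt5 was at 23.3 and 25.5 CPM in wild-type soft, 8.49 and 7.32 in wild-type stiff and 46.8 to 47.8 in the knockout. It fell in wild type (log2 -1.62 ± 0.096 SE, edgeR adjusted p = 1.58e-10) and was higher in the knockout on both gels (log2 0.97 on soft and 2.58 on stiff). Msln and Upk3b were at no more than 0.154 CPM, and Wt1 was at 0. Of the 8 hepatocyte markers, 3 fell in wild type on the stiff gel, Cyp2e1 by 1.75, Hnf4a by 0.98 and Asgr1 by 0.82 on the log2 scale (edgeR adjusted p = 1.08e-14, 2.44e-12 and 1.71e-10), and none rose. On that gel 3 were higher in the knockout (the same Cyp2e1, Hnf4a and Asgr1) and 2 were lower (Alb and Cps1). Their sum, most of which is Alb, was 88500 to 92900 CPM in wild type and 61500 to 62100 CPM in the knockout. The part of bile duct cells in the levels of Itgb6 and Lamb3 was not tested.

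**Figure D4:**
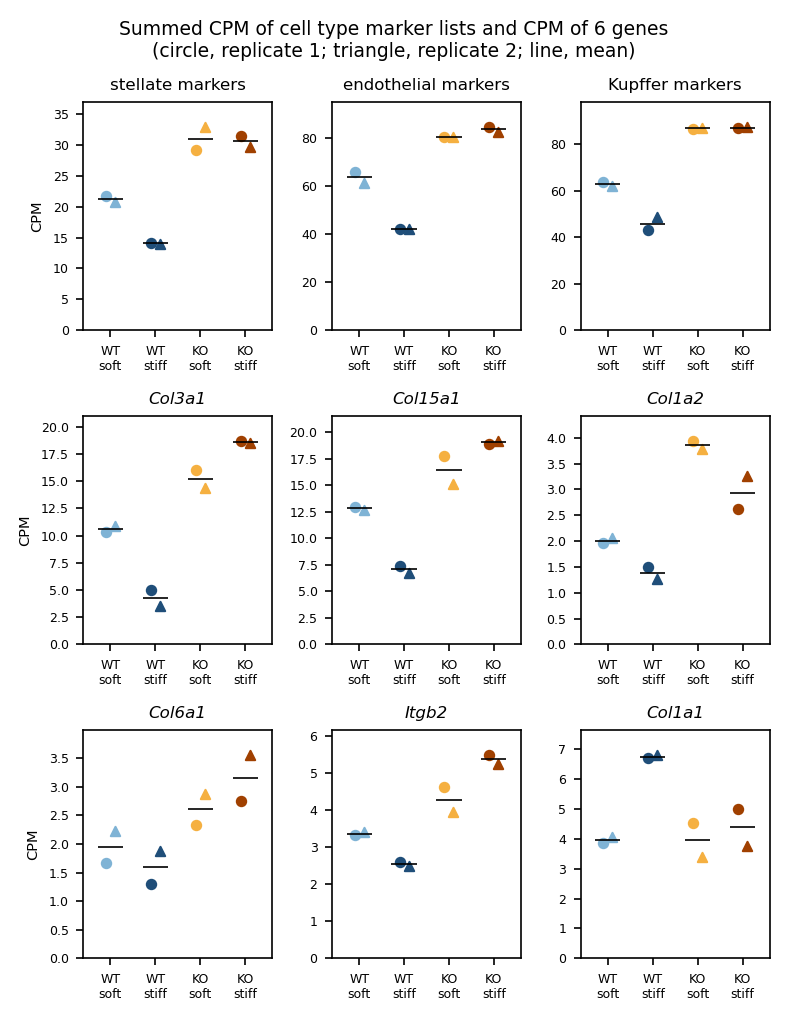
The y axes are CPM from 0, with a circle and a triangle for the libraries of each group and a line at their mean. The top row shows the summed stellate, endothelial and Kupffer cell markers, which are lowest in wild-type stiff (14 to 14.1, 42.2 to 42.3 and 43.1 to 48.5 CPM). Most of the Kupffer sum is Cd68. Col3a1, Col15a1, Col1a2 and Itgb2 are lowest there too, while Col1a1 is highest there.

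The promoters of all tested genes with a RefSeq window, 34 of the 48 (39 windows), were searched for CATTCC (TEAD) and TGANTCA (AP-1) on both strands. Itga7 had no window. CATTCC lay in 7 of the 39 windows (17.9%), against 14.7% of 32851 windows of all genes, and in 2 of 13 windows (15.4%) of genes that rose in wild type and 2 of 7 (28.6%) of genes that fell. TGANTCA lay in 4 of the 39 (10.3%), against 7.81% of all windows. Lamb3, with a log2 interaction of -1.89, and Col3a1, with 1.59, are shown because they moved in opposite directions and each has 1 CATTCC, in capitals. The Lamb3 window is the second of 2, at chr1:193301993-193302292 on the plus strand with its match at -167 from the start. The first Lamb3 window held no CATTCC. The Col3a1 window is at chr1:45311288-45311587 on the plus strand with its match at -168.
Lamb3: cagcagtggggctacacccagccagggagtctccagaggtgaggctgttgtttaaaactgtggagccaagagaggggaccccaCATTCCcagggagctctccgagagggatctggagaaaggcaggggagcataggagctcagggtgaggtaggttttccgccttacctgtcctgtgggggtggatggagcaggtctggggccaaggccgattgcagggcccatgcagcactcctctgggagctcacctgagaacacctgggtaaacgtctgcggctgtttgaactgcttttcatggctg
Col3a1: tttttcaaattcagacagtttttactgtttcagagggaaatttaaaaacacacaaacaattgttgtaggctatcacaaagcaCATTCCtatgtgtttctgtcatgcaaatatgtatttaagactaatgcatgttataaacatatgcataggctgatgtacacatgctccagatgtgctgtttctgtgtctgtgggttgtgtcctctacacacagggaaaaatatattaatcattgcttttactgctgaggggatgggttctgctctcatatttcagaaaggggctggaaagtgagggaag
The 2 windows of Itgb6 held no match, that of Itgb1 had 1 CATTCC at -7, and 1 of the 2 windows of Col18a1 had 2, at -104 and -54. The Itgb1 gene rose in wild type and Col18a1 was not called there, so a match lay in genes that rose, that fell and that were not called.

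Genes that make and cross-link collagen were also measured. Of 26 listed, 21 were tested, and 4 rose and 2 fell in wild type on the stiff gel, where 10% of all genes rose and 9.26% fell. The lysyl oxidases Lox, Loxl2 and Loxl4, which cross-link collagen, rose 6.44-fold, 4.26-fold and 2.54-fold (edgeR adjusted p = 0.000193, 8.04e-08 and 3.52e-11). Lox was at trace level, with 8 and 8 counts in wild-type soft and 56 and 41 in wild-type stiff. Loxl4 was at 7.39 and 7.41 FPKM in wild-type soft, 19 and 18.6 in wild-type stiff and 4.06 to 4.62 in the knockout. The procollagen proteinase Bmp1 rose 1.77-fold (edgeR adjusted p = 5.21e-10), and P3h3, a collagen prolyl hydroxylase, and Mia3, which loads procollagen for export, fell. P3h3 had only 31 and 11 counts in wild-type soft and 4 and 2 in wild-type stiff. Adamts14, a procollagen N-proteinase, was not called in wild type. The collagen chaperone Serpinh1 was not called in wild type (log2 -0.30 ± 0.18 SE) and was higher in the knockout on the stiff gel (log2 1.07 ± 0.17 SE, edgeR adjusted p = 4e-05).

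Among 17 tested matrix proteins bound by integrins or laminins (21 listed), 5 rose and 4 fell in wild type, beside the same 10% and 9.26% of all genes. Fbln2, a basement membrane linker, rose 8.49-fold from 0.665 and 0.663 FPKM to 5.53 and 5.77 (edgeR adjusted p = 5.2e-12), and Thbs1, a trimeric matrix protein, rose 4.57-fold from 4.37 and 3.71 FPKM to 18.9 and 18.2 (edgeR adjusted p = 1.22e-13). Fn1 (fibronectin), Hspg2 (perlecan) and Agrn (agrin) also rose. The proteoglycans Dcn, Lum and Bgn fell, as did Ecm1. Dcn and Lum also stand in the list of stellate cell markers.

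Integrin adaptors moved in 1 direction among the genes called. All 20 were tested, 7 rose and 0 fell in wild type (10% and 9.26% of all genes), and 8 were lower and 0 higher in the knockout on the stiff gel (15% and 13.7% of all genes). The median log2 fold change in wild type was 0.38. Tln1 (talin) was at 17.7 and 18.5 FPKM in wild-type soft, 30.2 and 30.3 in wild-type stiff and 18.2 to 19.7 in the knockout, a 1.67-fold rise in wild type (edgeR adjusted p = 2.16e-10). Fermt2 (kindlin-2) rose 1.63-fold (edgeR adjusted p = 2.15e-09), and Bcar1, a scaffold phosphorylated at adhesions, 1.63-fold (edgeR adjusted p = 1.75e-09). The other 4 were Ilk, Parva, Lims1 and Fermt1. Of 11 tested collagen and laminin receptors outside the integrin family (13 listed), Ddr1, a collagen receptor kinase, rose (log2 0.51 ± 0.085 SE, edgeR adjusted p = 8.47e-05) and Ddr2 fell (log2 -1.64 ± 0.61 SE, edgeR adjusted p = 0.0383), the second at no more than 0.08 FPKM. None of the genes of these 4 lists was called between stiff and soft in the knockout by edgeR, and at an unadjusted p under 0.05 there were 2, 4, 3 and 1.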

How the data were processed

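RNA of primary hepatocytes was sequenced paired-end in 8 libraries, 2 for each of the 4 groups given by the sample titles. Per the labels, the authors aligned reads with HISAT2 2.0.5 and counted them on genes with featureCounts. The deposited table holds these raw counts, without normalization, with each gene's length and position. The labels name the build mm9, but the positions of 3 of the 79 genes equal those of GENCODE M21 (GRCm38), so no table position is printed. Whether reads shared by genes were counted, and on which strand, is not given in the sources used here, and overlapping or near-identical genes are named as uncertain.

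The count table was fitted by edgeR 4.0.16 in R 4.3.3 (filterByExpr by group, TMM scaling, glmQLFit on all 8 libraries with 4 residual degrees of freedom, glmQLFTest, Benjamini-Hochberg adjustment over all 14279 genes tested), with a call at an adjusted p below 0.05 and a log2 fold change beyond 0.5 either way. SE is the absolute log2 fold change divided by the square root of F. FPKM is TMM-scaled CPM per kilobase. A prior count of 2 was used only for the log2 CPM values behind the correlations of replicate deviations. Library totals of 18324083 to 26442310 counts set the precision, with 0 counts leaving room for 3 at 95% confidence. Replicate libraries differed by more than sampling noise (chi-square per degree of freedom 2.62 to 5.45), so each counts as 1. P-values measure the spread between these libraries, which may be technical.

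Genes and lists were chosen with earlier results of these data known. All genes with a mean of at least 1 FPKM or called in any comparison are named, apart from a result that is counted but not reported here, with the 6 highest trace genes and at most 6 called genes of each list. Bmp1, Mia3, Fn1, Hspg2, Agrn, Tln1 and single genes beside the overlaps, markers and untested members were named after their values were seen. Sequence held in common with other genes was measured over 64-base windows of each longest GENCODE M21 transcript. Figures used matplotlib 3.10.9 in Python 3.11.15. Alternatives were DESeq2 1.42.0, other scalings, filters and thresholds, a replicate block, fits of the 4 libraries compared, and fits without each library. The steps were tested on simulated data.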

Additional observations from a re-analysis of the deposited data

Results flagged for a closer look

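For 16 genes named here the response to the stiff gel differed between the genotypes by edgeR's interaction test, given here as the log2 change in Yap/Taz HepKO minus that in wild type. In 11 genes it was lower in the knockout, at -2.56 for Itgb6, -2.23 for Col16a1, -1.95 for Col12a1, -1.89 for Lamb3, -1.38 for Itga7, -1.25 for Col4a2, -1.04 for Col4a1, -1.03 for Lamb2, -1.01 for Itga3, -0.87 for Itgav and -0.73 for Itgb1. In 5 genes it was higher, at 0.56 for Itga6, 0.68 for Lamc1, 1.03 for Col5a1, 1.07 for Col15a1 and 1.59 for Col3a1. In each of the 11 the wild-type change was a rise, in each of the 5 it was a fall, and none of the 16 was called in the knockout. The Lamb2 and Col5a1 values lost their call when 1 of several libraries was left out, and the Itgb6 value when the first knockout soft library was. Groups of 2 libraries are too small to look for a single outlying library.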

How the results depend on the processing

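No called value changed its direction under any alternative, while 48 values of named genes that were not called changed sign, nearly all when a library was left out. The number of the 48 tested genes called in wild type, stiff versus soft, was 22, and 12 with an absolute log2 fold change over 1. In the knockout it was 0 under every alternative run. Between the genotypes on the soft gel it was 6, with 2 at an absolute log2 fold change over 1, 14 with no minimum and 3 without the first knockout soft library. By 1 CPM in place of 1 FPKM, 39 genes in place of 19 were at level. Leaving out each library in turn gave 18 to 22 calls in wild type, 0 to 0 in the knockout, 3 to 6 on soft, 23 to 29 on stiff and 14 to 16 for the interaction, and 17 to 20 genes at 1 FPKM. DESeq2 called 17, 0, 4, 23 and 14. Replicate numbers did not pair the samples (correlations of deviations from -0.1 to 0.04), and the fit with a replicate block called 21, 0, 5, 29 and 15. Of 74 calls, 53 held in every alternative but the stricter fold limit. The other calls were mostly of trace genes. Every comparison rests on 2 libraries per group. The causes of these changes were not tested.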
